A study of Mus musculus with 86 samples.

Results

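The cytosolic ribosomal protein genes were described in the hearts of mice of 4 lines, with or without isoproterenol, a beta-adrenergic agonist. Members were the genes whose platform symbol is Rpl or Rps followed by a number and an optional suffix, read from probe sets that carry a single symbol. This gave 46 genes on 101 probe sets, of 18193 genes on 34945 single-symbol probe sets. They comprised 24 genes of the large subunit (Rpl) and 22 of the small subunit (Rps). RefSeq lists 85 mouse symbols of this form, and the 39 without a single-symbol probe set, Rpl3, Rpl10 and Rpl10l among them, were not analysed here. Each gene was represented by its probe set of highest mean level over the 8 groups.

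Hearts came from FVB, C57BL/6, B2KO and B6129SF2/J mice, and the labels call all but the B2KO line wild type. They do not say which gene B2KO mice lack or on which strain they were bred, and they give neither age nor sex. Isoproterenol was infused for 14 days at 120 µg per g per day, and the untreated mice of each line had no infusion, so an effect of pump or vehicle cannot be told apart from that of the drug. There were 12 isoproterenol and 10 untreated arrays for FVB, 10 and 11 for C57BL/6, 10 and 10 for B2KO, and 12 and 10 for B6129SF2/J. A pair of B2KO isoproterenol arrays, replicates 4 and 9, differed by less than any other pair (r = 0.999999763, the next highest being 0.982) and were counted as 1 sample. Whether arrays of a group came from separate mice is not stated array by array, so p-values measure the spread between these samples.

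A cytosolic ribosome holds 1 copy of nearly every ribosomal protein, bound to ribosomal RNA in a large and a small subunit. The mRNAs of these proteins begin with a C followed by an unbroken run of pyrimidines, the 5′ terminal oligopyrimidine (TOP) motif, through which mTOR signalling sets their translation as a group. A change in their translation therefore need not appear in mRNA levels, which are what an array measures. Several members have paralogs: Rpl3l takes the place of Rpl3 in skeletal and cardiac muscle, and Rpl22l1, Rpl7l1, Rpl39l, Rps27l and Rps4l are close relatives of the genes they are named after.

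The start-site windows of the 5 members that passed the test in an isoproterenol comparison, and of Rps2, whose call depended on 1 array, are shown because the TOP motif lies at the start site. Each window runs from 15 bases before to 15 bases from the RefSeq start (GRCm38.p6), 5′ to 3′ on the strand of the gene, and capitals mark a run of at least 6 C or T that starts with C.
Rpl22l1, plus strand, chr3:28805493-28805522: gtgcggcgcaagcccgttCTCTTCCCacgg
Rpl35, minus strand, chr2:39005117-39005146: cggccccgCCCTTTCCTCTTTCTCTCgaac
Rpl37, plus strand, chr15:5116598-5116627: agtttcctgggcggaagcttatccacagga
Rpl39, minus strand, chrX:37085208-37085237: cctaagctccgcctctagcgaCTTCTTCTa
Rps6, minus strand, chr4:86857353-86857382: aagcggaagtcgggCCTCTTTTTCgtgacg
Rps2, plus strand, chr17:24720048-24720077: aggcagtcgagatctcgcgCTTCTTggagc
Rpl35 held the longest run of these, 18 bases, and Rpl37 held none in its window. Of the 46 members, 40 had a promoter in the RefSeq table, and 24 of these, 60%, held such a run on the gene's strand. The share was 29.0% of 69 mitochondrial ribosomal protein genes and 25.9% of 17491 protein-coding genes. A run in the window is a description and not a measured TOP motif.

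Values were GCRMA intensities scaled so that each array's median is 1, and levels below are log2 of that value, so that 0 is the array median. Of the 46 members, 32 had a mean above 7 and 10 had a mean of 4 or less. The highest means were those of Rps29 (10.7), Rps28 (9.57), Rpl4 (9.54), Rpl37a (9.53) and Rpl13a (9.52). The lowest were those of Rps16 (-2.26), Rpl39l (-0.98), Rps27 (-0.01), Rpl12 (0.71) and Rpl14 (0.79). Probe sets differ in their response, so a low value belongs to the probe set and gives no order of abundance between genes. Rps16 and Rpl39l, a paralog of Rpl39 known for its expression in the testis, did not exceed the array median in any group and were not tested, which left 44 members of 11961 genes.

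Array quality touches the members directly. B2KO isoproterenol replicate 10 correlated with the other arrays at a median r of 0.573, and its 75th percentile was 1.28 times the array median, against 3.49 to 8.37 in the others. In it the members' median was 2.39, against 7.76 to 8.61 in the other B2KO isoproterenol arrays. It did not lower all members alike: 21 of 44 lay more than 3 below the mean of the 8 other B2KO isoproterenol arrays, 9 lay within 1 and 6 lay more than 1 above. Rps10, of the small subunit head, was at 0.69 against 8.75, and Rpl6, of the large subunit, at 0.16 against 7.90. Rps29, by contrast, was at 11.9 against 10.6, and Rpl38 at 11.0 against 8.97. The main results on members that rest on this array are given with and without it, while other gene lists are given mainly with all arrays. In 5 other arrays the Gapdh 3′ probe set exceeded the 5′ one by more than 2. These were untreated FVB replicate 10, C57BL/6 replicate 11, B6129SF2/J replicate 8 and B2KO replicate 8, and B6129SF2/J isoproterenol replicate 7. The doubt about RNA quality thus falls mainly on untreated arrays. In B2KO untreated replicate 8, Rpl37 lay 2.22 above the mean of the 9 other untreated B2KO arrays. A further 2 isoproterenol arrays, FVB replicate 2 and B2KO replicate 7, were in doubt by their strain-marking probe sets. Another line's arrays were nearer to them than, or about as near as, those of their own background. B2KO and FVB were pooled as 1 background both in choosing these 200 probe sets and in measuring the distances. The counts without the doubted arrays are given with the other alternatives.

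**Figure D1:**
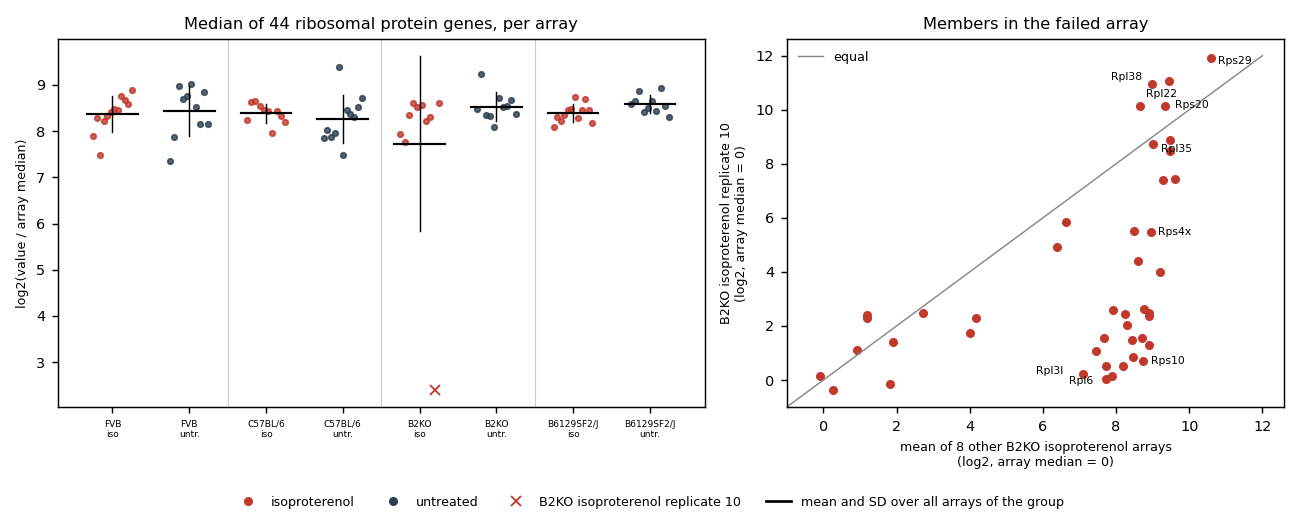
Left, the median of the 44 members tested in each array, log2 with the array median at 0, by line and treatment, with the mean and SD of each group. Right, each member in B2KO isoproterenol replicate 10 (y) against the mean of the 8 other B2KO isoproterenol arrays (x). The failed array sits at 2.39 on the left, and on the right its members run from far below the line, such as Rps10, to above it, such as Rps29.

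With all arrays, few ribosomal protein genes passed the test for an isoproterenol effect. All 4 that passed over the 4 lines together were large-subunit genes and lower after isoproterenol: Rpl39, Rpl22l1, Rpl37 and Rpl35. Their fitted changes lay between -0.45 and -0.35 on the log2 scale. That is 9.09% of 44 members, while 21.9% of all genes tested were called, 13.5% lower (limma, Benjamini-Hochberg adjusted p under 0.05). Without the failed array there were 5 of 44, the same 4 and Rps27, while 28.4% of all genes were called, 13.8% lower. In both fits the share of members called was below that of all genes. Without the failed array and with arrays centred, a fit added after seeing the data, it was 16 of 44, against 36.5% of all genes. Of the 44 estimates, 40 were negative with all arrays and 33 without the failed one. The members' median change was -0.19 (all genes -0.06) with all arrays and -0.08 (all genes -0.01) without that array. After quantile normalization the median was -0.08 with all arrays and -0.03 without the failed one.

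The spread between arrays and their number limit how small an effect could be seen. Fitted over the 4 lines, the 95% interval of all 44 members lay within 1 log2 unit of 0, and that of 21 within 0.5, or 37 without the failed array. Within a line the intervals were wider: those within 0.5 of 0 numbered 7 in FVB, 3 in C57BL/6, 3 in B2KO and 5 in B6129SF2/J. Without the failed array they numbered 21, 14, 10 and 14 for the same lines, since all lines share 1 estimate of each gene's spread.

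**Figure D2:**
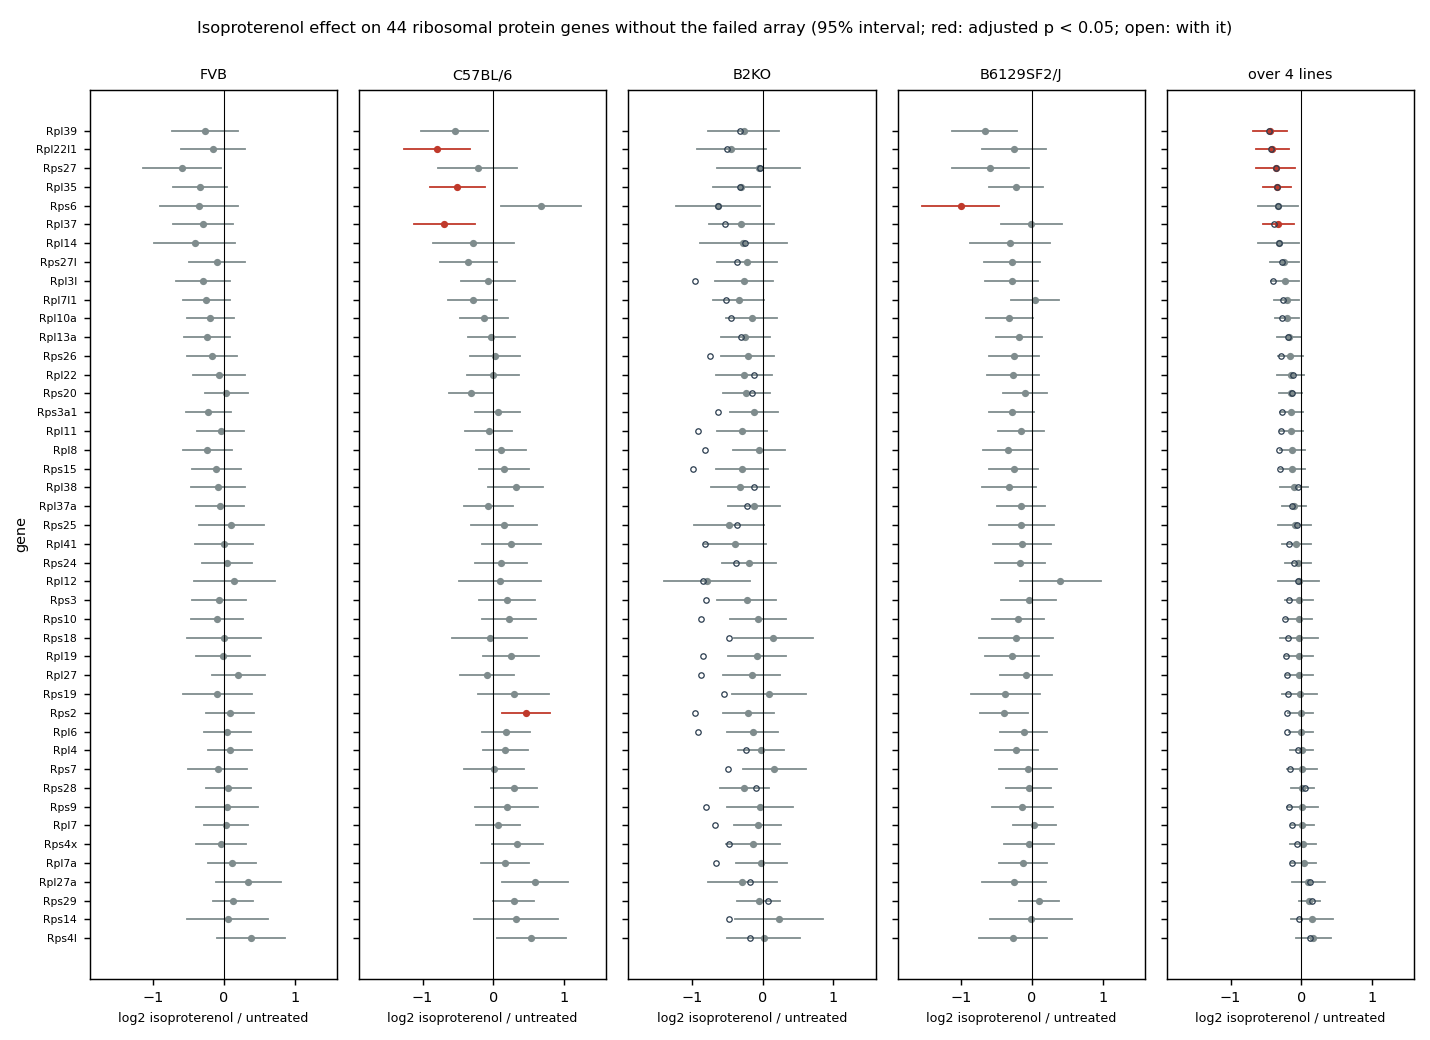
Isoproterenol minus untreated, log2, for the 44 members tested (rows) in each line and over the 4 lines, fitted without the failed array, with 95% intervals; red marks an adjusted p under 0.05 (limma) and open circles the estimate with that array. Most intervals cross 0, and the open circles lie furthest from the filled ones in B2KO.

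Rpl22l1 was the member that fell most in C57BL/6 hearts, and it passed the test under each alternative run. It encodes the paralog of Rpl22, a large-subunit protein that is dispensable for translation as such. It read 5.89 in the lowest, 6.28 in the median and 6.94 in the highest C57BL/6 isoproterenol array, against 6.59, 7.28 and 7.97 in the untreated ones. All 10 isoproterenol arrays lay below the untreated mean, though the ranges overlap. The change was -0.80 (SE 0.24, 95% interval -1.27 to -0.32, limma adjusted p = 0.0113). The estimates in FVB (-0.15), B2KO (-0.51) and B6129SF2/J (-0.26) did not pass the test. The B2KO value was -0.32 without B2KO untreated replicate 8, where Rpl22l1 read 8.63 against 6.20 to 7.23 in the other untreated arrays. Across the 4 lines together Rpl22l1 fell by 0.43 (SE 0.12, limma adjusted p = 0.0053). The brightest probe set of its partner Rpl22 was estimated at -0.11 over the 4 lines and did not pass, while a dimmer Rpl22 set was at -0.40 (limma adjusted p = 0.0109 over all probe sets tested).

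Rpl37 and Rpl39, small basic proteins of the large subunit, were also lower after isoproterenol. In C57BL/6 hearts Rpl37 read 3.70 (lowest), 4.05 (median) and 4.42 (highest) with isoproterenol, against 4.02, 4.88 and 5.41 untreated. All 10 isoproterenol arrays were below the untreated mean, and the ranges overlap. Its change there was -0.69 (SE 0.24, limma adjusted p = 0.0346). This call was lost, with an adjusted p of 0.0502 to 0.0651, when any of C57BL/6 untreated replicates 1, 3, 5 and 11 or isoproterenol replicates 5 and 7 was left out. Over the 4 lines Rpl37 fell by 0.38 (SE 0.12, limma adjusted p = 0.0164), and the estimate in B6129SF2/J was -0.01. Rpl39 passed over the 4 lines, at -0.45 (SE 0.12, limma adjusted p = 0.0040), and in no single line with all arrays. Its largest estimate was in B6129SF2/J, -0.67, where the isoproterenol arrays read 1.29, 1.78 and 2.41 (lowest, median, highest) against 1.85, 2.49 and 2.91 untreated. All 12 of them lay below the untreated mean, the ranges overlap, and the limma adjusted p was 0.0921. The Rpl39 estimates in C57BL/6, B2KO and FVB were -0.54, -0.32 and -0.27. In C57BL/6 Rpl39 passed in 5 of 15 alternatives (limma adjusted p from 0.0183 to 0.130), and when untreated replicate 7 (0.0433) or isoproterenol replicate 8 (0.0458) was left out. In B6129SF2/J it passed in 2 of 15 (limma adjusted p from 0.0017 to 0.133).

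Rpl35, a protein near the exit of the nascent peptide tunnel, was estimated lower in each line, from -0.51 in C57BL/6 to -0.22 in B6129SF2/J. In C57BL/6 hearts it read 8.23, 8.65 and 9.00 (lowest, median, highest) with isoproterenol, against 8.45, 8.93 and 10.3 untreated. The isoproterenol arrays were in the lower part of the untreated range, and the limma adjusted p was 0.0610, or 0.0420 without the failed array. Over the 4 lines the change was -0.35 (SE 0.10, limma adjusted p = 0.0071). Of its 6 probe sets 5 were tested, and their estimates over the 4 lines ran from -0.59 to -0.06. With probe sets ending in _s_at or _x_at left out, Rpl35 was at -0.24 (limma adjusted p = 0.347). Rps27, a zinc finger protein of the small subunit read here by a dim probe set, was estimated at -0.36 over the 4 lines and passed without the failed array (limma adjusted p = 0.0430), and in 6 of 14 alternatives in all.

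**Figure D3:**
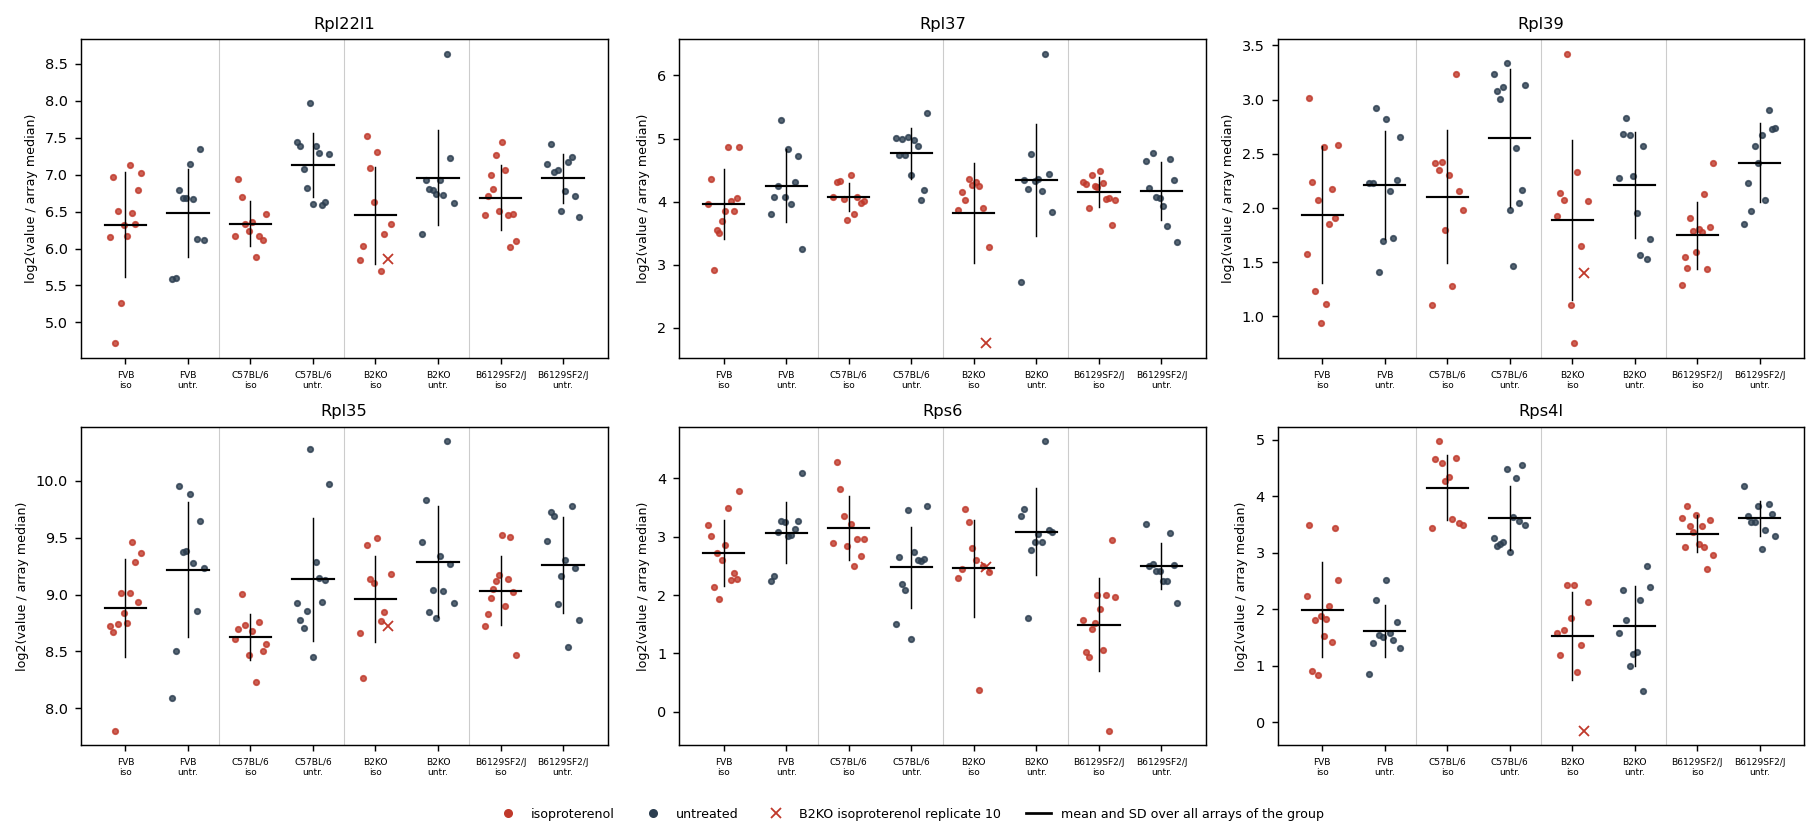
Level in each array, log2 with the array median at 0, by line (FVB, C57BL/6, B2KO, B6129SF2/J) and treatment, with the mean and SD of each group. Genes are the 5 members called in an isoproterenol comparison with all arrays, and Rps4l. Rpl22l1 and Rpl37 differ most in C57BL/6, Rps6 in B6129SF2/J, and Rps4l separates lines rather than treatments.

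Within single lines few members passed. In FVB hearts it was 0 of 44, against 1.51% of all genes (limma, lowest adjusted p among members 0.367, and 1 member with an unadjusted p under 0.05). In C57BL/6 hearts it was 2 of 44, both lower, Rpl22l1 and Rpl37, against 19.5% of all genes, with 12.5% higher and 6.98% lower. Without the failed array it was 4 of 44, with Rpl35 also lower and Rps2 higher, against 27.1% of all genes, 17.9% higher and 9.15% lower. In B2KO hearts it was 0 of 44, against 1.81% of all genes (limma, lowest adjusted p 0.0938, and 19 members with an unadjusted p under 0.05). It was still 0 in B2KO without the failed array, against 0.36% of all genes, and 2 had an unadjusted p under 0.05. In B6129SF2/J hearts it was 1 of 44, Rps6, lower, against 4.52% of all genes, 2.1% lower, and likewise 1 without the failed array, against 8.41% and 4.32%. The members' median change in C57BL/6 was 0.10, beside 0.09 over all genes, and turned to -0.06 when arrays were centred on the genes tested, which moved the median of all genes to -0.07. In B2KO it was -0.50, beside -0.28 over all genes, and -0.21 beside -0.08 without the failed array. In B6129SF2/J it was -0.21, beside -0.02 over all genes, with 40 of 44 estimates negative. Quantile normalization brought that median to -0.04. In FVB it was -0.06 beside -0.01.

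Marker lists of several cell types differed between the groups as well. In C57BL/6 hearts 4 of 4 endothelial markers were higher, where 19.5% of all genes were called in either direction. Their summed level was 126 to 246 times the array median with isoproterenol and 44.8 to 124 untreated. Of 6 fibroblast markers 2 were higher there, with sums of 867 to 2746 and 456 to 1336. In B6129SF2/J hearts the fibroblast sums were 990 to 2312 with isoproterenol and 827 to 1068 untreated. Median sums of the macrophage, lymphocyte, erythroid, smooth muscle, adipocyte and cardiomyocyte lists were also higher with isoproterenol in C57BL/6 hearts, with overlapping ranges. In B6129SF2/J hearts 3 of 5 lymphocyte markers were lower, where 2.1% of all genes were called lower. The lymphocyte sums were 8.01 to 28.4 with isoproterenol and 15.6 to 264 untreated. The part of these cell types in the ribosomal protein values was not tested. In whole hearts fewer cells of a type and less RNA per cell cannot be told apart. All 8 cardiomyocyte markers were on the array. Their summed level in C57BL/6 hearts was 12023 to 16712 times the array median with isoproterenol (median 15773) and 8592 to 17929 untreated (median 10577). Of these 8, 1 was called higher, or 3 without the failed array, where 27.1% of all genes were called in either direction. All 8 estimates were positive.

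Rps6, the small-subunit protein phosphorylated by S6 kinases downstream of mTOR, was the member whose isoproterenol effect differed between lines. It was read by a single tested probe set of low level. In B6129SF2/J hearts it was at -0.33 (lowest), 1.54 (median) and 2.94 (highest) with isoproterenol, against 1.86, 2.46 and 3.21 untreated. Of the 12 isoproterenol arrays 11 lay below the untreated mean, and the ranges overlap. The change was -1.01 (SE 0.28, 95% interval -1.56 to -0.46, limma adjusted p = 0.0172), and without B6129SF2/J isoproterenol replicate 10 it was -0.84 (limma adjusted p = 0.0545). In C57BL/6 hearts it was at 2.49, 2.96 and 4.28 with isoproterenol, against 1.25, 2.59 and 3.53 untreated. All 10 isoproterenol arrays lay above the untreated mean there, and the estimate was 0.68 (limma adjusted p = 0.0783).

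The difference between these effects, B6129SF2/J minus C57BL/6, was -1.68 (SE 0.40, limma adjusted p = 0.00506). It was the 1 of 44 members called in that comparison, against 5.65% of all genes, 3.27% lower. B2KO minus C57BL/6 gave -1.31 (SE 0.40, limma adjusted p = 0.0290), again 1 of 44 members, against 10.5% of all genes, 8.94% lower, and without the failed array 1 of 44, against 5.58% and 4.26%. The B2KO difference was lost when any of C57BL/6 untreated replicates 1 and 6, C57BL/6 isoproterenol replicate 2 or B2KO isoproterenol replicate 7 was left out (limma adjusted p up to 0.0585). It passed in only 6 of 15 alternatives, with estimates from -1.31 to -0.13 (limma adjusted p from 0.0272 to 0.735). With the mean of all probe sets of a gene, the B6129SF2/J minus C57BL/6 difference was -0.46 (limma adjusted p = 0.240). FVB minus C57BL/6 called 0 of 44 members, against 1.7% of all genes (limma, lowest adjusted p 0.175, and 1 member with an unadjusted p under 0.05), and Rps6 was at -1.03 there. The line differences share the C57BL/6 arrays.

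Rps2, a small-subunit protein near the mRNA entry, passed the test in 3 comparisons when the failed array was left out. All 3 share the untreated C57BL/6 arrays, so they are not independent. In C57BL/6 hearts it was at 8.24, 9.00 and 9.56 (lowest, median, highest) with isoproterenol and at 7.44, 8.69 and 9.45 untreated. The change was 0.47 and passed without the failed array (limma adjusted p = 0.0350), but not with all arrays (0.412). The difference of effects, B6129SF2/J minus C57BL/6, was then -0.86 (SE 0.24, limma adjusted p = 0.0143), which with Rps6 made 2 of 44 members, against 10.7% of all genes, 7.09% lower. In untreated hearts of the same lines it was at 9.28, 9.45 and 9.54 in B6129SF2/J and 7.44, 8.69 and 9.45 in C57BL/6. The ranges overlap at their edge, and the difference was 0.98 (limma adjusted p = 4.53e-05 without the failed array).

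Between untreated lines the member that stood out was Rps4l, an Rps4x relative. It was at 0.85, 1.53 and 2.51 (lowest, median, highest) in untreated FVB hearts and at 3.01, 3.49 and 4.55 in untreated C57BL/6 hearts. The groups do not overlap, and the difference, FVB minus C57BL/6, was -2.0 (SE 0.26, 95% interval -2.53 to -1.48, limma adjusted p = 5.75e-09). It was the only member called in that comparison, 1 of 44, against 12.2% of all genes, 7.81% lower. Without the failed array Rpl22l1 was also lower in FVB (-0.66, limma adjusted p = 0.0383), 2 of 44 against 17.8% of all genes, 10.5% lower. Untreated B2KO hearts averaged 1.70 ± 0.707 (SD, n = 10) and untreated B6129SF2/J hearts 3.60 ± 0.312 (SD, n = 10), so the B2KO line lay with FVB and B6129SF2/J with C57BL/6. In B2KO minus FVB 0 of 44 members were called, against 0.0167% of all genes (limma, lowest adjusted p 0.999, and 0 members with an unadjusted p under 0.05). In B6129SF2/J minus C57BL/6 it was 0 of 44, against 7.67% of all genes (limma, lowest adjusted p 0.0900, and 8 members with an unadjusted p under 0.05). Without the failed array 6 of 44 were higher in B6129SF2/J, against 13.7% of all genes, 8.25% higher. These were Rps2 and, with differences of 0.48 to 0.57, Rpl38, Rps24, Rps4x, Rpl4 and Rps3a1. In the same comparison 4 of 8 cardiomyocyte markers were higher in B6129SF2/J, or 6 without the failed array, with a median difference of 0.65. Their summed level was 13489 to 25503 in untreated B6129SF2/J and 8592 to 17929 in untreated C57BL/6 hearts, and the part of this in the members' values was not tested.

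The second probe set of Rps9, whose name ends in _x_at, separated the lines by more, and was named after its values were seen. It averaged 2.81 ± 0.394 in untreated FVB hearts and 7.97 ± 0.546 in untreated C57BL/6 hearts (SD, n = 10 and 11). The difference was -5.17 (SE 0.36, limma adjusted p = 1.13e-20). Untreated B2KO hearts averaged 2.44 ± 0.714 and untreated B6129SF2/J hearts 6.60 ± 0.558. The Rps9 probe set used for the gene, ending in _s_at, averaged 7.85 in FVB and 7.71 in C57BL/6, with a difference of 0.14 (limma adjusted p = 0.880). With isoproterenol the second set read 2.79 ± 1.58 in FVB, where replicate 2 was at 7.02 and the other arrays at 0.40 to 3.58. It read 6.66 ± 1.06 in B6129SF2/J, where replicate 12 was at 3.45 and the others at 6.44 to 7.73. Rps9 and Rps4l are both among the 200 probe sets that marked strains. They and the doubt about FVB isoproterenol replicate 2 are therefore not independent. The marking probe sets were chosen with B2KO pooled with FVB, so the likeness of B2KO to FVB in them is not independent either. Whether the lines differ in transcript level or in the sequence under the probes was not tested.

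**Figure D4:**
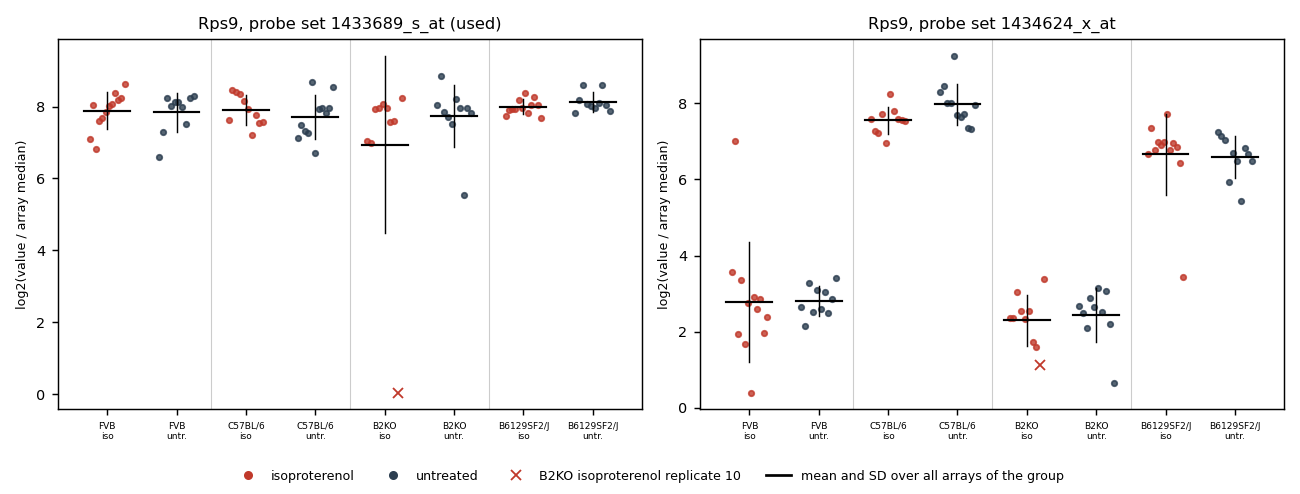
Both Rps9 probe sets in each array, log2 with the array median at 0, by line and treatment, with the mean and SD of each group. The set used (left) sits near 8 in all lines apart from the failed array, while the other (right) is lower in FVB and B2KO than in C57BL/6 and B6129SF2/J.

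Among the paralogs, Rpl3l did not pass the test with all arrays, nor when only the failed array was left out. With isoproterenol it was at 6.24, 7.02 and 7.72 (lowest, median, highest) in FVB hearts, against 6.39, 7.35 and 8.24 untreated. In B2KO hearts it was at 0.21, 7.15 and 7.68 with isoproterenol, against 6.77, 7.40 and 7.85 untreated, with the failed array lowest. Its B2KO estimate was -0.95 with that array and -0.26 without it. In the mean of the 4 lines it was -0.40 (limma adjusted p = 0.0993), and -0.23 (0.0682) without the failed array. It passed over the 4 lines in 4 of 15 alternatives, of which 3 centred the arrays and 1 combined quantile normalization with leaving out the failed array (lowest limma adjusted p 0.00103). In FVB it passed in 1 of 15 (0.0165). Rpl7l1 and Rps27l, the second of which is a p53 target, were at -0.25 and -0.27 over the 4 lines, with limma adjusted p of 0.0512 and 0.0565. Both lie near the threshold: Rpl7l1 passed in 6 of 15 alternatives and in 26 of 85 fits that left out 1 array, and Rps27l in 4 of 15 and 13 of 85. Their partners Rpl7 and Rps27 were at -0.14 and -0.36, and Rps4x, a gene on the X chromosome, was at -0.06.

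Over all probe sets, 88 of the members' 101 were tested among 21465. In the mean of the 4 lines 14 were lower and 1 was higher, a dim Rpl37a set at 0.42, against 20.3% of all probe sets called. No gene had probe sets called in opposite directions.

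Without the failed array the median SD within groups was 0.432 for members and 0.511 for all genes tested. With it these values were 0.657 and 0.591. The 2 sets were not matched for level, and 32 of the 44 members had a mean above 7. The steadiest was Rps29, a zinc-binding protein of the small subunit, at 0.309, a value that 0.41% of all genes undercut. Rps20 and Rpl7 followed at 0.340 each. Rps14 (0.698), Rpl12 (0.685) and Rpl14 (0.685) varied most. Within groups the 32 members of mean level above 7 correlated with each other at a median r of 0.684 over 84 arrays, and 547 other genes at that level at 0.485. After quantile normalization these values were 0.176 and 0.00538. All 44 members tested were at 0.507 and, after quantile normalization, at 0.0999. The 76 mitochondrial ribosomal proteins, whatever their level, were at 0.577 and 0.172, so the correlation was not particular to the cytosolic ones. These pairs share arrays and scaling, so they are a description.

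Other genes of ribosome production were set beside the members over the 4 lines, where 8.45% of all genes were called higher and 13.5% lower. These values are from the fit with all arrays, the failed one included, and medians without that array are plotted below. Of 76 mitochondrial ribosomal proteins, which build the ribosome of the organelle, 21 fell and 0 rose, with a median of -0.27, while the members' median was -0.19 and that of all genes -0.06. Of 14 genes of RNA polymerase I transcription, which makes ribosomal RNA, 7 fell and 0 rose, with a median of -0.32. They included Taf1a (-0.53), a subunit of the promoter selectivity factor SL1, Cd3eap (-0.46), Polr1d (-0.43) and Polr1b (-0.41), the second-largest subunit. Of 29 ribosome assembly genes 7 fell, among them Dkc1 (-0.38), which modifies ribosomal RNA, Heatr1 (-0.37), Rrp1b (-0.35) and the nucleolar protein Npm1 (-0.35), and the list median was -0.12. In C57BL/6 hearts 4 of these 29 rose, Nop58 (1.17), Eif6 (1.05), Pes1 (0.93) and Utp18 (0.61), and 0 fell. That share is near the 12.5% of all genes called higher there.

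Translation factors and other mRNAs with TOP motifs showed 3 of 17 lower, Eef1d (-0.43), Eif3e (-0.35) and Eef1b2 (-0.25), and 0 higher. Of 4 ribosomal proteins outside the symbol pattern 1 fell, Rplp2, an acidic stalk protein (-0.35, limma adjusted p = 0.0187). Rplp0 and Rpsa were at -0.21 and -0.19. Among 17 regulators, Eif4ebp2, a repressor of cap-dependent initiation, was higher (0.66). Eif4e, the cap-binding protein it holds (-0.53), and Gabpa, a transcription factor (-0.37), were lower. Whether these changes are linked was not tested. Of 100 respiratory chain subunits 2 rose and 19 fell, and of 47 proteasome subunits 1 rose and 6 fell. In the same comparison 21.9% of all genes tested were called, 13.5% lower.

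**Figure D5:**
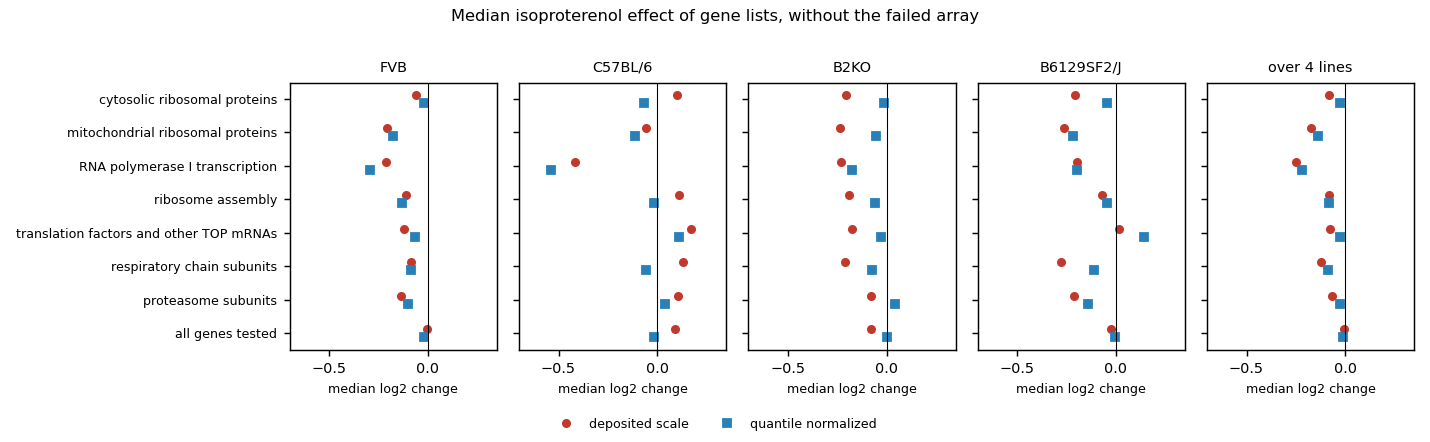
Median log2 change, isoproterenol minus untreated, of each gene list (rows) in each line and over the 4 lines, fitted without the failed array, on the deposited scale and after quantile normalization. The cytosolic ribosomal proteins lie nearer 0 than the mitochondrial ones over the 4 lines (-0.08 and -0.17 on the deposited scale).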

How the data were processed

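Gene expression was measured on Affymetrix arrays from 10 µg of heart total RNA per array. The deposited values are GCRMA intensities, per the submitters' processing notes; the authors' deposited table has a median of 1 in every array, so they were also scaled. Further steps and a genome build are not given in the sources used here. Samples were grouped by their labels. From these values log2 was taken, the near-identical pair averaged, and one linear model over the 8 groups fitted with limma 3.58.1 (R 4.3.3) to the 11961 genes whose highest group mean exceeded log2 0, with Benjamini-Hochberg adjustment and a threshold of 0.05. Scripts used Python 3.11.15, pandas 2.3.3, numpy 2.4.6 and matplotlib 3.10.9. The model code was run on simulated data with independent noise for each gene, which holds no correlation between genes and no failed array. Of 45101 probe sets, 932 carry several symbols, 9160 none and 64 are controls, and genes were named from the platform table.

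Members, gene lists and tests were chosen with earlier results of these data known. Named genes were the paralog pairs, the 5 highest and 5 lowest members, the 6 largest changes past the threshold each way in an isoproterenol effect, 4 each way in a line comparison, and up to 4 in other lists. Alternatives were quantile normalization, centring, filters, probe set rules, moderation, a replicate block and left-out arrays. Same-numbered arrays of different groups did not all deviate together (280 pairs, r from -0.384 to 0.376), so numbers were not taken as pairs.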

Additional observations from a re-analysis of the deposited data

Results flagged for a closer look

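Groups of more than 10 arrays, FVB isoproterenol, C57BL/6 untreated and B6129SF2/J isoproterenol, were not screened for single outlying arrays. In the other groups, arrays that stood far from the rest were counted over 70 tests of group and gene or median. There were 11, where chance gives about 1 in 20. Of these, 6 were B2KO isoproterenol replicate 10, the failed array. Its members' median was 2.39, against 7.76 to 8.61 in the other arrays of that group. It was lowest for Rpl37 (1.75, others 3.28 to 4.35), Rpl3l (0.21, others 6.07 to 7.68), Rpl7 (2.63, others 8.29 to 9.23), Rpl7l1 (2.30, others 3.76 to 4.83) and Rps4x (5.47, others 8.48 to 9.56).

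B2KO untreated replicate 8, in which the Gapdh 3′ probe set exceeded the 5′ one by more than 2, was high for 3 paralogs. Rpl22l1 was at 8.63 (others 6.20 to 7.23), Rpl7l1 at 5.66 (others 3.97 to 4.76) and Rps27l at 8.04 (others 6.21 to 6.78). In the same array 16 of 44 members lay more than 1 above the other B2KO untreated arrays and 3 lay more than 3 below, Rps14 lowest at -5.10. The part of RNA quality in these values was not tested.

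B2KO untreated replicate 2 had the highest members' median of its group, 9.24 (others 8.09 to 8.71). Rps6 was lowest in B2KO isoproterenol replicate 7, at 0.37 (others 2.30 to 3.47). The strain-marking probe sets of that array lay about as near to another line as to FVB and B2KO pooled.

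The isoproterenol effect on Rps6 differed between lines in 2 of the 3 contrasts tested. It was -1.68 for B6129SF2/J minus C57BL/6 (limma adjusted p = 0.00506) and -1.31 for B2KO minus C57BL/6 (limma adjusted p = 0.0290). The first passed in 14 of 15 alternatives and the second in only 6 of 15.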

How the results depend on the processing

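The counts below are members called of 44, each followed by the share of all genes called in the same fit; comparisons not mentioned kept a count within 1.5 times. Over the 4 lines (4, 21.9%) 11 were called with arrays centred (31.3%) and 7 with the mean of all probe sets (25.1%). Without the failed array it was 16 centred (36.5%) and 9 quantile (36.3%), and without 8 doubted arrays 14 centred (39.6%); these combinations were chosen after seeing the data. In C57BL/6 (2, 19.5%) the counts were 6 centred (29.2%), 7 quantile (24.5%), 5 without 3 arrays (27.8%), 5 without 8 (33.4%), 8 without 8 centred (41.1%), 1 without _s_at and _x_at sets (19.9%), 4 without the failed array (27.1%), 7 without it centred (34.3%) and 10 without it quantile (34.6%). In B6129SF2/J (1, 4.52%) they were 0 with mean probe sets (5.76%), 5 with only the groups compared (23.3%), 3 without 8 centred (18.9%), 2 without _s_at and _x_at sets (4.31%), and without the failed array 3 centred (13.6%) and 3 quantile (14.6%). In B2KO (0, 1.81%) 1 was called with mean probe sets (1.43%). In FVB (0, 1.51%) 4 were called without 8 arrays centred (16%) and 1 without the failed array quantile (8.47%).

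For B2KO minus C57BL/6 (1, 10.5%) the count was 0 centred (8.61%), with mean probe sets (12.7%), with only the groups compared (2.06%), without 3 arrays (4.77%) or 8 (16.5%), and without the failed array centred (6.32%), and 2 without 8 arrays centred (21.1%). For B6129SF2/J minus C57BL/6 (1, 5.65%) it was 2 centred (10.7%), 0 with mean probe sets (8.09%), 5 with only the groups compared (17.6%), 5 quantile (8.44%), 2 without 3 arrays (11.1%), 3 without 8 (16.5%), 6 without 8 centred (22.2%), 2 without the failed array (10.7%), 3 without it centred (14.9%) and 8 without it quantile (16.2%). For FVB minus C57BL/6 (0, 1.7%) it was 1 quantile (2.58%), 1 without 8 arrays centred (10%) and 2 without the failed array quantile (8.15%). For untreated B6129SF2/J minus C57BL/6 (0, 7.67%) it was 6 centred (13.4%), 1 with mean probe sets (8.99%), 2 with only the groups compared (13%), 4 quantile (11.4%), 6 without 3 arrays (14.2%), 8 without 8 (19.3%), 15 without 8 centred (27.5%), 6 without the failed array (13.7%), 10 without it centred (18.3%) and 5 without it quantile (19.7%). For untreated FVB minus C57BL/6 (1, 12.2%) it was 2 centred (19.7%), 3 with mean probe sets (14.4%), 2 quantile (18%), 2 without 3 arrays (18.3%), 4 without 8 (18.5%), 7 without 8 centred (27.8%), 2 without the failed array (17.8%), 5 without it centred (24.2%) and 9 without it quantile (27.4%). The cause of these moves was not tested.

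With single arrays left out, the counts ran from 4 to 8 over the 4 lines, 1 to 3 in C57BL/6, 0 to 1 in B6129SF2/J and B2KO, and 0 to 0 in FVB. They ran from 0 to 2 for B2KO minus C57BL/6, 1 to 1 for B6129SF2/J minus C57BL/6, 0 to 0 for FVB minus C57BL/6, 0 to 3 for untreated B6129SF2/J minus C57BL/6, 1 to 2 for untreated FVB minus C57BL/6 and 0 to 0 for untreated B2KO minus FVB. The count over the 4 lines was 7 without any of FVB untreated replicates 1 and 10, FVB isoproterenol replicate 2 and B2KO isoproterenol replicates 3 and 4, and 8 without C57BL/6 untreated replicate 6 or B2KO isoproterenol replicate 6. In C57BL/6 it was 1 without untreated replicates 1 or 3 or isoproterenol replicates 5 or 7. It was 0 in B6129SF2/J without isoproterenol replicate 10 and 1 in B2KO without isoproterenol replicate 5. For B2KO minus C57BL/6 it was 0 without C57BL/6 untreated replicates 1 or 6, C57BL/6 isoproterenol replicate 2 or B2KO isoproterenol replicate 7, and 2 without C57BL/6 untreated replicate 5 or B2KO isoproterenol replicates 6 or 11. For untreated B6129SF2/J minus C57BL/6 it was 2 without C57BL/6 untreated replicate 5 and 3 without replicate 11. For untreated FVB minus C57BL/6 it was 2 without FVB untreated replicates 3, 6 or 9 or C57BL/6 untreated replicates 6, 9 or 10.

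A replicate block left the count at 4 over the 4 lines, 2 in C57BL/6 and 1 in B6129SF2/J and changed no other count; same-numbered arrays share only a number (47 of 280 pairs correlated over 0.1). The Rpl22l1 call in C57BL/6 held in 15 of 15 alternatives. No value past the threshold changed sign, but values short of it did: 7 of the 11 members' medians and 17 of 57 gene effects in some alternative. The median of B2KO minus C57BL/6 was -0.70, and 0.10 without the failed array after quantile normalization; Rpl7 in C57BL/6 ran from -0.27 to 0.14. Dim probe sets, such as those of Rps6 and Rps27, limit what can be said of those members.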
